A study of Homo sapiens with 6 samples.

Results

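The replication-dependent and linker histone genes were taken as all array probe sets whose platform gene symbol begins with H1-, H2AC, H2BC, H3C or H4C, or with the older prefixes HIST1H to HIST4H. This gave 122 of the 49293 probe sets tested. Of these, 114 were annotated to 1 gene and 8 to several, and together they carried 75 gene symbols. By histone type there were 13 probe sets for the linker histone H1, 29 for H2A, 41 for H2B, 19 for H3 and 19 for H4. The remaining member, a probe set of H1-10-AS1, matched the prefix but belongs to a long noncoding RNA gene. The values came from MV4;11, an established human leukemia line with a rearranged MLL gene, grown for 6 days with 4 µM MI-389 (3 arrays) or with the solvent DMSO (3 arrays). MI-389 inhibits the binding of menin to MLL, and both groups held 0.25% DMSO, with fresh medium on day 3. All cells are of 1 line, and the labels call the samples biological replicates without saying how the cultures were separated, so a p-value here reflects how far these 6 samples spread, and part of that spread may be technical.

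Core histones H2A, H2B, H3 and H4 form the protein spool of the nucleosome, and linker histone H1 binds the DNA that enters and leaves it. Cells make most of this protein in S phase from clustered, intronless genes, whose messenger RNAs end in a stem-loop bound by SLBP in place of a poly(A) tail. Some histone genes also give polyadenylated transcripts, and many histone variants are made outside S phase as well, from polyadenylated messages. The arrays were labelled by a 3-prime in vitro transcription protocol, which starts from poly(A) tails, so a value here need not follow the total messenger RNA of a histone gene.

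Sequences are shown for the 4 genes with probe sets past the test and with a fitted log2 difference of at least 1, namely H2AC17 and H2BC15, which rose with MI-389, and H2BC12 and H2AC25, which fell. Each is the stretch upstream of the gene's annotated start, cut where the next gene model begins, from RefSeq in build GRCh38.p14, written 5-prime to 3-prime on the strand of the named gene. Capitals mark matches to TATAAA (the TATA box), CCAAT (the CCAAT box) and ATTTGCAT (the octamer known from H2B promoters), on either strand.
H2AC17, chr6:27893186-27893424, minus strand: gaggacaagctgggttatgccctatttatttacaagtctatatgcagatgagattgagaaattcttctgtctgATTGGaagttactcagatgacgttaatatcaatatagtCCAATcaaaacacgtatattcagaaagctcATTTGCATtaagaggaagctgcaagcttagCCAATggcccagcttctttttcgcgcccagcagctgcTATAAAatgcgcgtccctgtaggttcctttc
H2BC15, chr6:27838376-27838568, plus strand: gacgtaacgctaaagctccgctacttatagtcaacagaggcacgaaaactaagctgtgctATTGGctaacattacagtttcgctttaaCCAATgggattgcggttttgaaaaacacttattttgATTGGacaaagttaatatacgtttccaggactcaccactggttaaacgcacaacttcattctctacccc
H2BC12, chr6:27146859-27147105, minus strand: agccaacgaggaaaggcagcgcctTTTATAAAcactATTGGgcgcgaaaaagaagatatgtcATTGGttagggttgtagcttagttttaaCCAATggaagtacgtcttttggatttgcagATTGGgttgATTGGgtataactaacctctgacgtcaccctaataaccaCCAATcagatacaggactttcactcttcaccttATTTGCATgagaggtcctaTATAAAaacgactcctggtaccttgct
H2AC25, chr1:228457874-228458102, minus strand: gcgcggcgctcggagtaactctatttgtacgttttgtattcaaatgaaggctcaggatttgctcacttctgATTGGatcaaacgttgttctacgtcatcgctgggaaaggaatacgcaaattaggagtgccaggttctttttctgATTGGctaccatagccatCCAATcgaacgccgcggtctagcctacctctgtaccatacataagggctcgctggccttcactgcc
All 4 stretches are intergenic and separate an H2A gene from an H2B gene. The one upstream of H2AC17 runs for 239 bases to H2BC17, that of H2BC15 for 193 bases to H2AC15, that of H2BC12 for 247 bases to H2AC12 and that of H2AC25 for 229 bases to H2BC26. The stretches of H2AC17 and H2BC12 held all 3 motifs, while those of H2BC15 and H2AC25 held 3 CCAAT matches each and no TATAAA or ATTTGCAT. A rise and a fall were thus found with each arrangement.

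Across the upstream windows of 250 bases, 67 member genes had a sequence and were searched on both strands, with the first annotated start of each gene. CCAAT stood in 16 of 16 H2A, 18 of 18 H2B, 11 of 11 H3, 8 of 9 H1 and 3 of 13 H4 windows, against 33.0% of 27305 genes. TATAAA stood in 64.2% of the member windows, against 11.1% of all genes. ATTTGCAT was found in 11 of 16 H2A and 14 of 18 H2B windows, in 0 of 9 H1 and 0 of 13 H4 windows, and in 1.66% of all genes. The single H3 window with it belongs to H3C4, whose window in the table is that of H2AC7. GGTCCG, the core of a site known from H4 promoters, was found in 12 of 13 H4 windows and in 9.33% of all genes. Matches of different motifs overlapped 3 times over the member windows, in those of H2AC20, H2BC21 and H3C7. For H2AC20 and H2BC21, a head-to-head pair, it is the same stretch read from opposite strands. In 11 pairs of an H2A and an H2B gene that lie head to head the windows overlap. A site between such partners can therefore count for both types, and the H2A and H2B counts are not independent. The types thus differ in these letters, which are a description of the sequence and show no binding.

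Values are log2 expression as deposited, and a difference is the MI-389 mean minus the DMSO mean, with its standard error (SE) from limma. Probe sets were called at a Benjamini-Hochberg adjusted p under 0.05 over all 49293 probe sets, and "rose" and "fell" are used of called probe sets. As a guide to background, a level of 5.49 was used, the highest single value among 23 control probe sets of nonspecific sequence when the class of highest GC content is left out. With that class the highest control value was 7.87, which several of the members above 5.49 do not reach. Levels of different probe sets are not compared, since each has its own probes. The array medians lay between 4.47 and 4.50, and arrays correlated at 0.997 to 0.998 within groups and at 0.979 to 0.981 between them over all probe sets, which are not independent. Of the line's markers, PTPRC, LYZ, CSF1R and FLT3 were above 5.49 in both groups and SPI1 was below it, and 0 of 10 measured markers of lymphoid, erythroid, epithelial and fibroblast cells reached it in either group, with 1 called higher and 2 called lower. In these bulk samples, fewer cells that express a gene and less RNA per cell cannot be told apart.

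Histone probe sets moved in both directions. With MI-389, 24 of 122 rose and 12 fell, so that 29.5% were called (19.7% higher and 9.84% lower), where 28% of all probe sets were called (14% higher and 14% lower). With a log2 difference of at least 1 as a further condition, 3 histone probe sets rose and 2 fell, where 1.56% of all probe sets rose and 1.57% fell that far. The count of lower probe sets was 6 without MI-389 replicate 1, 6 without DMSO replicate 1 and 7 without DMSO replicate 3, and 6 fell and 17 rose in each of the 6 fits that left out 1 array. The median difference over the 122 was 0.09, against 0.01 over all probe sets, and 94 of the 122 differences (77.0%) were above 0, against 54.0% of all probe sets. The count above 0 was 86 with a common array median or quantile normalisation, and 22 with the arrays centred on spike-ins as described next. The 3 MI-389 arrays lay above the 3 DMSO arrays for 38.5% of the histone probe sets and below them for 10.7%, against 21.3% and 19.1% of all probe sets, so that the groups were separate for 49.2% of them, against 40.4%. The share of calls was thus close to that of all probe sets, with more of them rises, but the members were dimmer. Among probe sets with neither group mean above 5.49, 20.4% of the members were called, against 10.6% of all. With both means above it, 73.3% of 15 members were called, against 53.8% of all.

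The rises depend on the scale. The hybridisation spike-ins are foreign, already labelled transcripts added at the hybridisation step, so they do not measure the amount of RNA in the cells. Read after RMA, they averaged 9.30 on the MI-389 arrays and 9.05 on the DMSO arrays. Centring the arrays on these spike-ins moved the median over all probe sets to -0.24. Since this centring lowers every difference by the same amount, rises can only shrink and falls only grow. On that scale 8 of the 24 rises were still called higher and 16 were not called. Of called histone probe sets 66.7% were higher as deposited and 13.6% after this centring, beside 49.8% and 8.77% over all probe sets. In all, 8 histone probe sets were then higher and 51 lower. Their median was -0.16, and the order of the medians is the same by construction. From here on, differences refer to the scale as deposited.

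**Figure D1:**
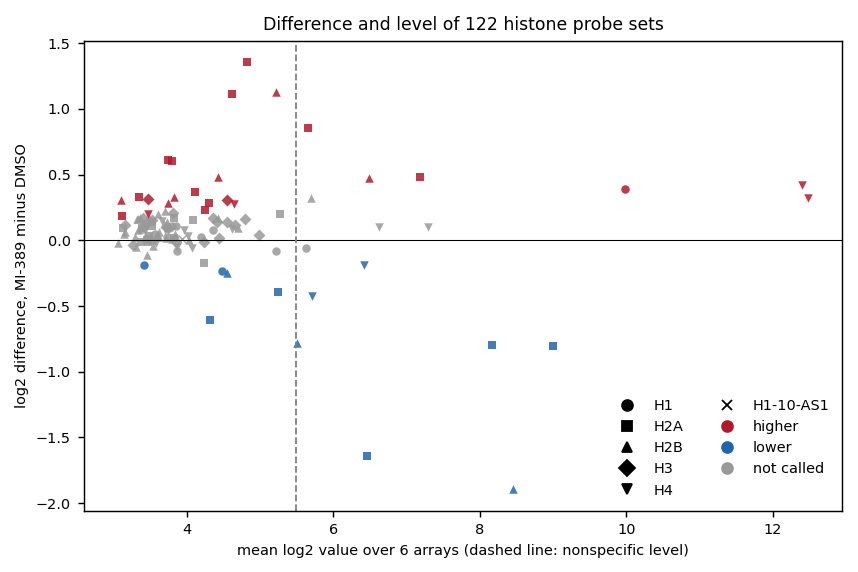
Each point is 1 of the 122 histone probe sets, with its mean log2 value over the 6 arrays on the horizontal axis and its log2 difference, MI-389 minus DMSO, on the vertical axis. Marker shapes give the histone type, colours the limma call, and the dashed line the nonspecific level of 5.49. Most points lie left of the line, and the largest falls, H2BC12 at -1.89 and H2AC25 at -1.64, lie right of it.

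Most histone probe sets were dim. Both group means were above 5.49 for 15 of the 122, only the MI-389 mean for 3, only the DMSO mean for 1, and neither for 103, so 15.6% had a group above that level, against 38.4% of all probe sets. Of the 19 with a group above it, 8 rose and 7 fell, where 26.9% of all such probe sets rose and 29.1% fell. The 4 members above it in 1 group alone had to differ to be so, and these counts give no support on their own. Among the 103 dim members, 16 were called higher and 5 lower, which is 15.5% and 4.85%, where 5.89% of all equally dim probe sets were higher and 4.66% lower. Their median difference was 0.09, against 0.02 for the 30383 dim probe sets of the whole array. The nonspecific control probe sets averaged 3.77 on MI-389 arrays and 3.71 on DMSO arrays, a difference of 0.05, whose part in the dim members' differences was not tested. RMA compresses dim values, and no fold is given where both groups lie under 5.49.

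**Figure D2:**
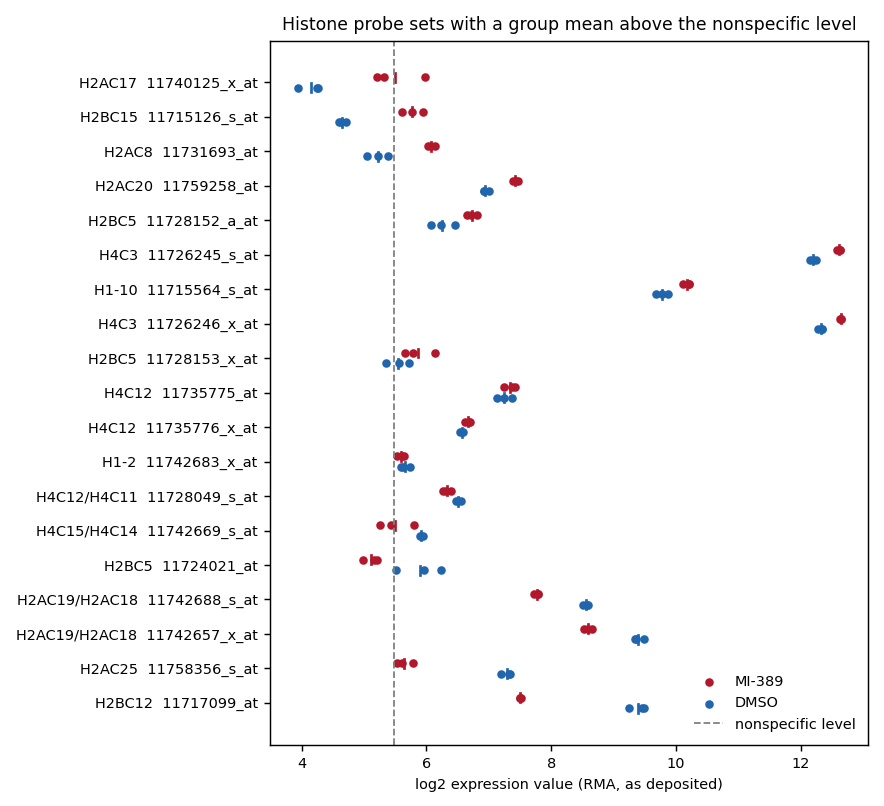
The 19 histone probe sets with at least 1 group mean above the nonspecific level (dashed line, 5.49) are ordered from the largest rise at the top to the largest fall at the bottom. Dots are single arrays in log2 units, red for MI-389 and blue for DMSO, and short bars are group means (3 arrays each). Red and blue dots do not overlap for H2BC12, H2AC25 and both H2AC18/H2AC19 probe sets, where MI-389 is lower, nor for H4C3, where MI-389 is higher.

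Among H2A genes, 11 of 29 probe sets rose and 5 fell (37.9% and 17.2%), where 14% of all probe sets rose and 14% fell. The 13 that were not called had differences from -0.17 to 0.20. H2A is the partner of H2B in the dimers that flank the H3-H4 core. The fall of H2AC25, the H2A gene of the small cluster on the long arm of chromosome 1, was the largest of the H2A genes. Its probe set 11758356_s_at read 5.53, 5.61 and 5.78 on the MI-389 arrays, against 7.19, 7.33 and 7.34 on the DMSO arrays. All 3 MI-389 values were below all 3 DMSO values. The log2 difference was -1.64 (SE 0.08, limma adjusted p = 1.32e-07), a level 3.13-fold lower with MI-389. It remained between -1.71 and -1.59 when any 1 array was left out.

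The gene pair H2AC18 and H2AC19, near-identical copies on chromosome 1, was read by the shared probe sets 11742657_x_at and 11742688_s_at, which cannot tell the copies apart. Their upstream windows share an unbroken run of 249 of 250 bases. The first probe set read 8.59, 8.53 and 8.65 with MI-389, against 9.48, 9.34 and 9.36 with DMSO. The second read 7.78, 7.73 and 7.78 with MI-389, against 8.60, 8.50 and 8.58 with DMSO. Both were lower on every MI-389 array, by log2 differences of -0.80 (SE 0.06, adjusted p = 6.12e-06) and -0.79 (SE 0.06, adjusted p = 3.12e-06). H2AC6, long known as HIST1H2AC, also fell, at 4.07, 3.91 and 4.07 with MI-389 and 4.63, 4.53 and 4.71 with DMSO. Its groups did not overlap, with a difference of -0.60 (SE 0.07, adjusted p = 1.08e-04), but both lay under 5.49. The last fall was in 1 of 2 H2AC11 probe sets, 11759131_at, which read 4.83, 5.02 and 5.28 with MI-389, against 5.45, 5.29 and 5.57 with DMSO. The groups came close without overlap (-0.40, SE 0.11), both under 5.49, and the fall was called in only 2 of the 6 fits with an array left out.

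H2AC17, a gene of the chromosome 6 cluster, had the H2A rises with a fitted difference over 1. Its probe set 11740125_x_at read 5.22, 5.31 and 5.97 with MI-389, against 4.26, 4.24 and 3.94 with DMSO. Its probe set 11740124_at read 4.91, 5.17 and 5.44 with MI-389, against 4.06, 4.00 and 4.13 with DMSO. MI-389 was above DMSO on every array for both, by 1.36 (SE 0.17, adjusted p = 1.94e-04) and 1.11 (SE 0.11, adjusted p = 3.69e-05). Set against the nonspecific level in place of the dimmer group, the first probe set was at least 1.01-fold higher. Only its MI-389 array at 5.97 was above that level, so the size of this rise is hardly bounded. Here and below, "at least" refers to group means, without their error.

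H2AC8 rose on both of its probe sets. The probe set 11731693_at read 6.14, 6.07 and 6.02 with MI-389, against 5.38, 5.06 and 5.23 with DMSO, a difference of 0.85 (SE 0.08, adjusted p = 2.94e-05) and at least 1.51-fold higher when set against 5.49. Its other probe set, 11731694_s_at, rose by 0.29 with both groups dim, and was called in 2 of the 6 fits with an array left out. H2AC20, on chromosome 1, was the member of this type that rose with both groups above 5.49. Its probe set 11759258_at read 7.43, 7.38 and 7.46 with MI-389, against 6.92, 6.92 and 7.00 with DMSO. The groups were far apart relative to their spread, with a difference of 0.48 (SE 0.06, adjusted p = 1.29e-04). The H2AC20 probe set 11715204_x_at rose by 0.33 with dim values. The other H2A rises were dim in both groups. H2AC16 read 3.86, 4.25 and 4.04 on 11759248_at with MI-389, against 3.59, 3.35 and 3.37 with DMSO, and 4.06, 4.18 and 4.07 on 11737572_x_at with MI-389, against 3.70, 3.47 and 3.33 with DMSO. Neither pair of groups overlapped, and the differences were 0.61 (SE 0.10) and 0.60 (SE 0.09). H2AC7 rose by 0.37 on 11738059_x_at and was not called on 11738058_s_at (0.01, 95% interval -0.19 to 0.22). H2AC13 rose by 0.23 and 0.18 and was not called on 11759253_x_at (0.09, interval -0.10 to 0.28). The call of H2AC13 at 0.18 (11759252_at) held in 1 of the 6 fits with an array left out.

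Among H2B genes, 6 of 41 probe sets rose and 3 fell (14.6% and 7.32%), where 14% of all probe sets rose and 14% fell. The other 32 had differences from -0.11 to 0.32. The largest change of all histone members was the fall of H2BC12, long known as HIST1H2BK, whose RefSeq gene model spans 8566 bases of chromosome 6 (27138293 to 27146858). Its probe set 11717099_at read 7.52, 7.50 and 7.49 with MI-389, against 9.45, 9.25 and 9.49 with DMSO. Every MI-389 array was far below every DMSO array. The difference was -1.89 (SE 0.07, limma adjusted p = 2.56e-08), a level 3.71-fold lower with MI-389, and it stayed between -1.96 and -1.85 when any 1 array was left out. The gene's second probe set, 11761490_at, was dim, at 3.80, 3.90 and 3.88 with MI-389 and 3.81, 3.80 and 3.82 with DMSO, and was not called (0.05, SE 0.06). The fall thus rests on 1 of the 2 probe sets.

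H2BC15 rose, with a DMSO mean under 5.49. Its probe set 11715126_s_at read 5.76, 5.60 and 5.95 with MI-389, against 4.63, 4.60 and 4.71 with DMSO. No array overlapped, and the difference of 1.13 (SE 0.09, adjusted p = 4.77e-06) was at least 1.22-fold when set against 5.49. H2BC8 read 4.66, 4.50 and 4.84 on 11734796_s_at with MI-389, against 4.11, 4.16 and 4.27 with DMSO, again without overlap. It rose on both probe sets (0.48 and 0.28) and so did H2BC3 (0.30 and 0.33), all with dim values. The H2BC8 probe set at 0.28 and the H2BC3 probe set at 0.33 were called in 3 of the 6 fits with an array left out. A probe set of H2BC21, 11717090_a_at, fell by 0.25 with dim values, and was called in 2 of the 6 fits with an array left out.

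H2BC5, long known as HIST1H2BD, was the single gene whose probe sets were called in opposite directions. Its RefSeq gene model spans 13229 bases of chromosome 6. The probe set 11724021_at read 4.99, 5.21 and 5.16 with MI-389, against 5.96, 5.51 and 6.23 with DMSO. It fell by 0.78 on the log2 scale (SE 0.15, adjusted p = 0.00271), at least 1.33-fold lower with MI-389, with 5.49 in place of the dimmer mean. The probe set 11728152_a_at read 6.72, 6.65 and 6.81 with MI-389, against 6.24, 6.07 and 6.45 with DMSO. It rose by 0.47 (SE 0.09, adjusted p = 0.00313), with all MI-389 arrays above all DMSO arrays. A further probe set, 11728153_x_at, read 5.78, 5.66 and 6.14 with MI-389 and 5.56, 5.35 and 5.72 with DMSO, overlapped, and was not called (0.32, 95% interval 0.04 to 0.60). Which transcripts each probe set reads was not analysed here.

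Of the 67 genes with a probe set of their own, 33 had more than 1, and 7 of these had probe sets with unlike calls. Besides H2BC5 and H2BC12 these were H1-10, H2AC7, H2AC11, H2AC13 and H2BC21. In 7 other genes every probe set rose, namely H2AC8, H2AC16, H2AC17, H2AC20, H2BC3, H2BC8 and H4C3, and in 19 none was called. No gene with several probe sets fell on all of them. Probe sets whose suffix (_s_at or _x_at) marks sequence shared with other transcripts made up 58 of the 122. Of these 13 rose and 6 fell (22.4% and 10.3%). Of the 62 one-gene probe sets without these suffixes 11 rose and 6 fell (17.7% and 9.68%). Over all probe sets 14% rose and 14% fell.

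**Figure D3:**
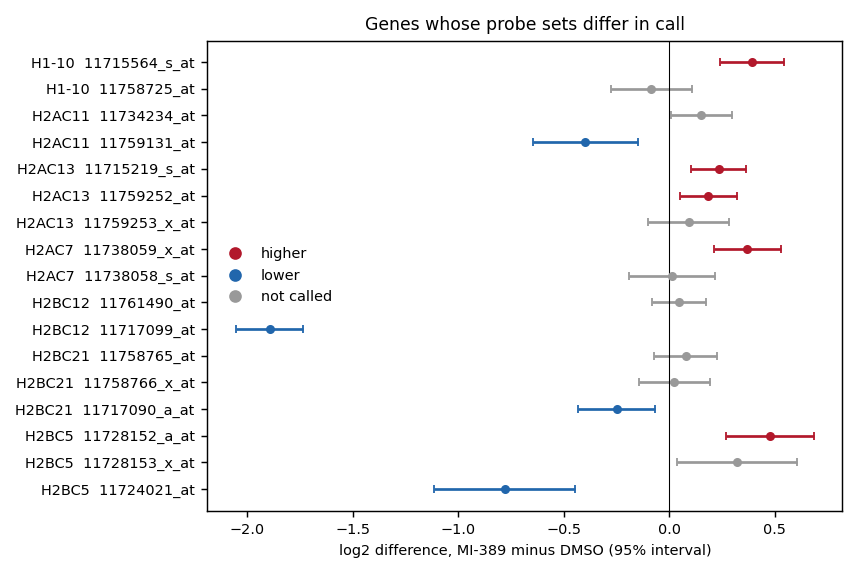
Log2 differences (MI-389 minus DMSO, points) with 95% intervals from limma (bars) for the 7 genes whose probe sets differ in call, coloured by call. For H2BC5 the intervals of the called probe sets lie on opposite sides of 0, and for H2BC12 the probe set at -1.89 stands beside a probe set at 0.05.

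Histone H4, for which nearly all genes encode the same protein, had 4 of 19 probe sets higher and 2 lower (21.1% and 10.5%). Over all probe sets 14% were higher and 14% lower. The other 13 H4 probe sets had differences from -0.06 to 0.14. H4C3, long known as HIST1H4C, was well above the nonspecific level. Its probe set 11726245_s_at read 12.62, 12.62 and 12.58 with MI-389, against 12.24, 12.19 and 12.14 with DMSO. Its probe set 11726246_x_at read 12.64, 12.64 and 12.63 with MI-389, against 12.34, 12.33 and 12.28 with DMSO. Every MI-389 array was above every DMSO array, by 0.42 (SE 0.06, adjusted p = 2.92e-04) and 0.32 (SE 0.05, adjusted p = 0.00130), or 1.34-fold and 1.25-fold. With the spike-in centring these differences were 0.17 and 0.07 and were not called. Because H4 genes resemble each other in sequence, other H4 transcripts may add to such shared probe sets.

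Both H4 falls were on probe sets shared by gene copies. The probe set 11742669_s_at of H4C14 and H4C15 read 5.43, 5.26 and 5.81 with MI-389, against 5.94, 5.91 and 5.90 with DMSO, a difference of -0.42 (SE 0.12, adjusted p = 0.0210). The probe set 11728049_s_at of H4C11 and H4C12 read 6.26, 6.32 and 6.39 with MI-389, against 6.51, 6.55 and 6.48 with DMSO, a difference of -0.19 (SE 0.06, adjusted p = 0.0393). The groups did not overlap in either, but leaving out 1 array ended the first call in 4 of 6 fits and the second in 5 of 6. The other shared probe set of H4C14 and H4C15, 11759256_at, was dim and not called, at 4.08, 3.77 and 4.15 with MI-389 and 3.77, 3.90 and 4.09 with DMSO (0.08, 95% interval -0.17 to 0.32). The probe sets annotated to H4C12 alone were not called, with differences of 0.10 each and 95% intervals of -0.07 to 0.27 and -0.03 to 0.22. H4C2 rose by 0.27 and H4C4 by 0.20, both dim in both groups, and the H4C4 call held in 1 of the 6 fits.

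H3, the histone whose tail carries the methylation that MLL proteins add, had the fewest calls of the 4 core types. None of its 19 probe sets had a group above 5.49, and 10.5% of them were called, close to the 10.6% of all equally dim probe sets. H3C2 (0.31, SE 0.08, adjusted p = 0.0116) and H3C12 (0.30, SE 0.07, adjusted p = 0.00679) were called higher, and 0 lower. The other 17 had differences from -0.04 to 0.21. H3C2 read 3.56, 3.78 and 3.54 with MI-389, against 3.26, 3.27 and 3.40 with DMSO, so that the groups were separate but close. H3C12 read 4.64, 4.62 and 4.82 with MI-389, against 4.37, 4.36 and 4.43 with DMSO, likewise without overlap. The 3 H3 probe sets with the highest means were not called, with H3C8 at 0.04 (95% interval -0.10 to 0.18) and 0.16 (SE 0.08) and H3C7 at 0.12 (interval -0.01 to 0.24). The MI-389 arrays lay above the DMSO arrays for 10 of 19 probe sets and below them for 0, where 13.5% of all dim probe sets lay above and 9.12% below (21.3% and 19.1% of all probe sets).

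Linker histone genes had 1 of 13 probe sets higher and 2 lower (7.69% and 15.4%), against 14% and 14% of all probe sets. The rise was in H1-10, which encodes H1X, a linker histone made outside S phase as well. Its probe set 11715564_s_at read 10.20, 10.21 and 10.10 with MI-389, against 9.88, 9.78 and 9.68 with DMSO. All MI-389 arrays were higher, by 0.39 (SE 0.07, adjusted p = 0.00139) or 1.31-fold, and by 0.14, not called, with the spike-in centring. The dim H1-10 probe set 11758725_at read 5.16, 5.32 and 5.04 with MI-389 and 5.30, 5.13 and 5.35 with DMSO and was not called (-0.08). The antisense H1-10-AS1 stood at 3.94, 3.88 and 3.98 with MI-389 and 3.81, 3.97 and 3.98 with DMSO, and was not called.

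Of the 5 somatic, replication-dependent linker histone genes, H1-1 was the one called. H1-2 (H1.2) read 5.64, 5.53 and 5.61 with MI-389 and 5.62, 5.73 and 5.59 with DMSO, a difference of -0.06 (95% interval -0.20 to 0.08) that was not called. H1-3, H1-4 and H1-5 were dim and not called, with differences of 0.03, 0.09 and 0.11. H1-1 fell by 0.19 (SE 0.06, adjusted p = 0.0280) and the pseudogene H1-9P by 0.23 (SE 0.07, adjusted p = 0.0394), with all MI-389 values below all DMSO values in both. Both were dim, and their calls held in 2 and 1 of the 6 fits with an array left out. The germ-line genes H1-6, H1-7 and H1-8 had 5 dim probe sets with differences from -0.08 to 0.11, not called.

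By position, 90 of the 122 probe sets belong to chromosome 6, 23 to chromosome 1 and 9 to other chromosomes. On chromosome 6, which carries the large histone cluster, 21 rose and 6 fell (23.3% and 6.67%). On chromosome 1, 2 rose and 5 fell (8.70% and 21.7%), where 14% of all probe sets rose and 14% fell. The members' own shares were 19.7% and 9.84%. Both H2AC18/H2AC19 probe sets are among the 5 falls on chromosome 1, and the 2 rises there are both of H2AC20. On chromosome 6, H2AC8, H2AC13, H2AC16, H2AC17, H2BC3, H2BC8 and H4C3 gave 2 rises each. The counts thus do not stand for separate genes. Whether the chromosomes differ was not tested.

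Many H2A and H2B genes lie head to head and start from the stretch between them. Among the measured genes with a RefSeq window, 11 pairs had starts 194 to 248 bases apart. In 1 pair both partners rose (H2AC8 and H2BC8), in 1 pair they were called in opposite directions (H2AC20 higher, 1 of 3 H2BC21 probe sets lower), in 7 pairs one partner was called and the other was not, and in 2 pairs neither was. For the sequences shown above, H2BC17 differed by -0.02 beside H2AC17, H2AC15 by -0.01 to 0.20 beside H2BC15, and H2BC26 by 0.00 and 0.01 beside H2AC25, none of them called. H2AC12, next to H2BC12 but without a window in the table, differed by -0.02 and was not called. These partners were dim in both groups. The pair counts rest on calls over all probe sets. The H2AC15 probe set at 0.20, 11715162_s_at, was close to the threshold there (limma adjusted p = 0.0508). In the fit with 1 probe set per gene, used below, H2AC15 was called higher (limma adjusted p = 0.0386), as was H2BC15.

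Other genes of histone supply were taken as 4 lists, with 1 probe set per gene and calls over 18239 genes, of which 18.4% were higher and 15.7% lower. On the same footing 20 of the 67 histone genes were higher and 7 lower, with a median difference of 0.10, against 0.02 for all genes. Among these 20, H2AC15, H2BC6, H2BC11 and H3C3 were not called over all probe sets. Their calls here were borderline, with limma adjusted p from 0.0386 to 0.0443. Of 34 measured S phase replication genes, 26 rose and 2 fell, and their median difference was 0.39. Both group means were above 5.49 for 33 of these 34 genes, for 8 of the 67 histone genes and for 8360 of all 18239 genes. Since RMA compresses dim values, the medians of the histone genes and the S phase genes are not compared at like levels. GINS1 (1.14) and GINS3 (1.04), parts of the replicative helicase, and POLE2 (1.07), a subunit of DNA polymerase epsilon, rose most. PRIM1 (-0.63), the primase catalytic subunit, and CDT1 (-0.60), a licensing factor, fell. With the spike-in centring 16 of these genes were higher and 7 lower (median 0.14), beside 7 histone genes higher and 26 lower (10.4% and 38.8%, median -0.15). Over all genes 7.66% were then higher and 60.6% lower, with a median of -0.23.

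Histone chaperones, which carry and deposit histones, had 12 of 24 genes higher and 1 lower (median difference 0.22). Among the rises were MMS22L (0.65) and TONSL (0.62), partners at replication forks, and ANP32E (0.46), a chaperone of H2A.Z. The TONSL mean with DMSO, 5.10, was under 5.49, so the size of its rise is uncertain. The H3-H4 chaperone ASF1A fell (-0.77) while its paralog ASF1B rose (0.31). CHAF1A, a subunit of the CAF-1 complex, rose by 0.29, and CHAF1B, another subunit, differed by 0.32 and was not called (adjusted p = 0.0553). With the spike-in centring 16.7% were higher and 37.5% lower (4 and 9 genes), against 7.66% and 60.6% of all genes.

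Genes of histone gene transcription and messenger RNA processing split, with 7 of 25 higher and 5 lower and a median of 0.00. The cyclin genes CCNE2 (0.77) and CCNE1 (0.59) and CASP8AP2 (0.44), a protein of histone locus bodies, rose most. SRRT (-0.94), which binds the cap complex, ZNF473 (-0.46), a component of the processing machinery, and SNRPB (-0.39), a core protein of small nuclear ribonucleoproteins, fell most. SLBP, the stem-loop binding protein, read 9.16 ± 0.06 with MI-389 and 9.39 ± 0.02 with DMSO (SD, n = 3 each), a difference of -0.23 (SE 0.06, limma adjusted p = 0.00859). NPAT, the cyclin E target that activates histone genes, rose by 0.16 (SE 0.05, limma adjusted p = 0.0383). With the spike-in centring 2 were higher and 14 (56%) lower, a share near the 60.6% lower over all genes.

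Of 10 measured genes of histone variants outside the members, 3 rose and 1 fell. H2AX, whose phosphorylation marks DNA breaks, rose by 0.79 (SE 0.06), the centromeric H3 variant CENPA by 0.63 (SE 0.06) and H2AZ2 by 0.42 (SE 0.06). H2AJ fell by 0.38 with both groups under 5.49. H2AZ1 (-0.02, 95% interval -0.14 to 0.10), MACROH2A1 (-0.02, interval -0.13 to 0.10) and H3-3B (-0.01, interval -0.14 to 0.11) were not called. The H3-3A probe set was dim and not called (-0.03). With the spike-in centring 2 variants were higher and 7 lower, where 7.66% of all genes were higher and 60.6% lower.

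**Figure D4:**
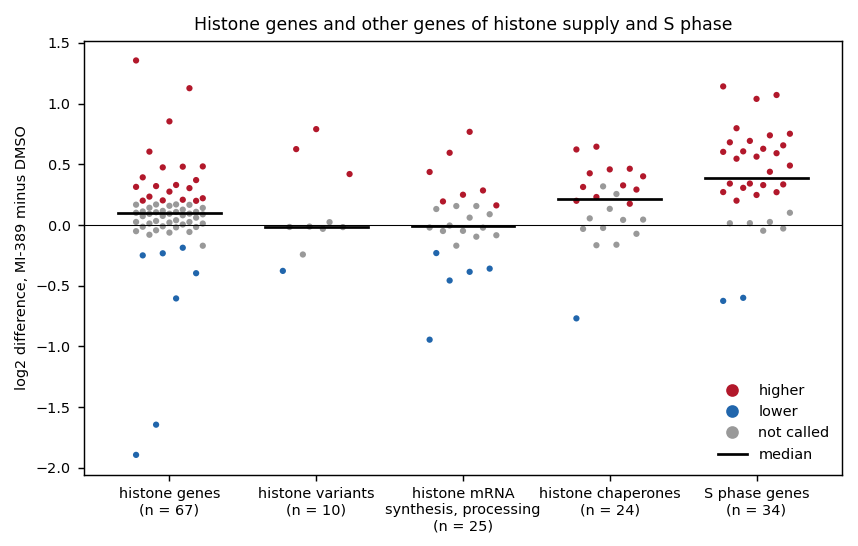
Log2 differences (MI-389 minus DMSO) with 1 probe set per gene for the 67 histone genes and for the lists of histone variants (10 genes), histone messenger RNA synthesis and processing (25), histone chaperones (24) and S phase genes (34). Points are genes coloured by call and black bars are medians. The median is 0.10 for histone genes and 0.39 for S phase genes, and the histone genes H2BC12 and H2AC25 lie at -1.89 and -1.64. Both group means were above 5.49 for 8 of the 67 histone genes, which include the noncoding H1-10-AS1, and for 33 of the 34 S phase genes.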

How the data were processed

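RNA of 6 MV4;11 cultures was hybridised to Affymetrix arrays after 3-prime labelling, per the labels' protocols. The deposited log2 values were used as they stand. The submitters' processing notes name RMA, which background-corrects, normalises and summarises probes into log2 values, and limma, without settings. The table held 49386 probe sets, of which 93 controls were left out of the tests. Gene symbols came from the platform annotation, and all 114 one-gene members were found by gene ID in RefSeq (GRCh38.p14), with 0 symbols changed.

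For MI-389 minus DMSO, lmFit and eBayes of limma 3.58.1 were run in R 4.3.3 without covariates (two-sided). Benjamini-Hochberg adjustment ran over 49293 probe sets, or over 18239 genes for the lists. There each gene stood by its probe set of highest mean among those annotated to it alone. The number of arrays limits the precision. No scan date or batch was given.

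Named probe sets follow a rule: up to 5 rises and 5 falls per histone type, the 3 highest in mean, all H1 probe sets, and genes with unlike calls. Of each list, up to 3 rises and 3 falls were named, and 8 genes whatever their value. MACROH2A1 and the partners in head-to-head pairs were named after their values were seen. Members and lists were chosen with earlier results of these data known. On simulated data with 49293 probe sets 50 probe sets were changed per size. At a log2 change of 0.25 the test found 4%, at 0.5 it found 68%, at 1 98% and at 2 100%. Of 49093 left unchanged, 8 were called. Far fewer probe sets were changed there than the 28% called in the data, which makes the adjusted threshold stricter. The shares found in the simulation thus do not give the share missed in the data. Alternatives were other scalings, a filter on dim probe sets, a replicate block, other variance models, stricter thresholds, left-out arrays and other choices of probe set.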

Additional observations from a re-analysis of the deposited data

How the results depend on the processing

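The counts of histone probe sets were 24 higher and 12 lower in the values as deposited. With the arrays centred on the hybridisation spike-ins they were 8 and 51, with a median of -0.16, and over all probe sets 2901 higher and 30190 lower. This centring lowers every difference by the same amount. Of the called probe sets, 66.7% of the histone and 49.8% of all probe sets were higher as deposited, against 13.6% and 8.77% on that scale. Testing for more than a fold of 1.2 (limma's treat), the counts were 7 and 6, and 2591 and 2755 over all. At an adjusted p under 0.01, 17 were higher and 6 lower (4886 and 5106 over all). With probe sets of 1 gene and without _s_at or _x_at, 10 were higher and 6 lower (4186 and 4084 over all), where fewer probe sets were tested. With 1 probe set per gene, 7 were lower (3352 and 2862 over all). The median was 0.073 with a common array median, 0.0732 after quantile normalisation and 0.12 with dim probe sets left out, a filter that 47 of the 122 passed. Leaving out each array in turn gave 19 to 25 higher, 6 to 11 lower, medians of 0.0643 to 0.105, and 5611 to 6851 higher and 5712 to 6743 lower over all. The replicate block gave 22 higher and 9 lower (6313 and 6468 over all). Same-numbered arrays correlated in their deviations at -0.18, 0.03 and -0.11, and 0 of 3 MI-389 arrays correlated best with their own number, so the numbers are not taken as pairs. Of the 54 named probe sets 20 changed sign with the spike-in centring, of which 10 were called on neither scale and 10 on 1 of them: H3C8 11715101_s_at (-0.21), H4C4 (-0.0533), H1-3 (-0.23), H1-7 (-0.20 and -0.23), H2AC13 (-0.0188 and -0.0678), H2AC7 11738058_s_at (-0.24), H2BC12 11761490_at (-0.21) and H2BC21 11758766_x_at (-0.23). In 12 alternatives (common median, quantile normalisation, replicate block, trended and robust variance, array weights, treat and the 6 left-out arrays), 7 rises and 6 falls were called in every fit. Beyond this centring, the cause of these changes was not tested.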
